A study of Mus musculus with 14 samples.

Results

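The carboxylesterases measured here are 7 probe sets of 6 genes in livers of 5-week-old male mice with and without miR-122, out of 14996 probe sets in the authors' deposited table. They were chosen by name, as every row of that table whose symbol starts with Ces and a digit, together with Gm4738, the table's name for Ces3b. The choice was made with the knockout and control means of the same table in view, so those means and every difference at 5 weeks are given as a description, with no test. A further 6 probe sets of carboxylesterases stand in the table under older names and are given beside them, which makes 13 probe sets in all. The RefSeq gene table of GRCm38.p6 lists 20 carboxylesterase symbols of the mouse, a pseudogene included. The genes that no probe set of the deposited table could be tied to by name were not analysed here.

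RNA was taken from liver and hybridised to Affymetrix whole-transcript arrays, with 14 samples in the series. The values come from 2 control and 2 knockout arrays at 5 weeks. The 5-week controls carry the genotype miR-122loxP/loxP, though their titles call them wild type. The 5-week knockouts carry miR-122loxP/loxP with Alb-Cre, in which the albumin promoter, active in hepatocytes, drives the Cre recombinase, while the series' design text calls them germ-line knockouts. Both groups thus share the floxed alleles, the male sex and the strain background given as 57/BL6J, and no treatment was given. The labels do not say whether each array came from a separate mouse, so the spread between arrays may be technical. The 10 arrays at 8 weeks, 5 of each genotype, were not analysed here, as no table used here names the genes of their probe sets.

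Carboxylesterases are serine hydrolases that cleave ester, thioester and amide bonds, and most of those of hepatocytes sit in the lumen of the endoplasmic reticulum. In mouse liver they hydrolyse drugs and other foreign esters, and some of them act on stored triglyceride or other lipids. miR-122 is the most abundant microRNA of hepatocytes and lowers the level of the mRNAs it pairs with.

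Ces3b had the greatest difference of the family and the lowest of all genes, 29.0 times lower in the knockout, and Ces1g had the greatest difference upward, 4.68-fold higher. Their upstream sequences, from RefSeq (GRCm38.p6), are shown because the pair went in opposite directions. Those of Ces1b and Ces1c are shown because these neighbouring paralogs have much the same upstream sequence. Ces1b and not Ces1c had groups that did not overlap, but so had 59.1% of all genes. No difference in response between the paralogs is read from it. Each line holds the 250 bases before the annotated start, read 5′ to 3′ on the gene's own strand, and capitals mark TATAAA or its reverse complement.
Ces3b, chr8:105083505-105083754, plus strand: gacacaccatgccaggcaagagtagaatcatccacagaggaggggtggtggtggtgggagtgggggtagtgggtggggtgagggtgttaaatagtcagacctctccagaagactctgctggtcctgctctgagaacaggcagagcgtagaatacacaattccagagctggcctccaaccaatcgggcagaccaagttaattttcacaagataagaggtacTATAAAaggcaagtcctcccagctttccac
Ces1g, chr8:93337210-93337459, minus strand: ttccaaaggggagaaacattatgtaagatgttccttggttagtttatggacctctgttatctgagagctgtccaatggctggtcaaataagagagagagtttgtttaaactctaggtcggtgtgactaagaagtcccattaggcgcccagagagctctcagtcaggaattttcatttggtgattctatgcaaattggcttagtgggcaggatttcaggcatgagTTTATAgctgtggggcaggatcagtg
Ces1b, chr8:93079941-93080190, minus strand: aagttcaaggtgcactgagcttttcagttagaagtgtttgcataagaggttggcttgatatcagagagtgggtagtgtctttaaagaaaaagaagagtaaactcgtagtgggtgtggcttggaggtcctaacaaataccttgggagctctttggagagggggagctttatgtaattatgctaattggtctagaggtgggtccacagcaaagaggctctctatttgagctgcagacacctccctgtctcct
Ces1c, chr8:93131284-93131533, minus strand: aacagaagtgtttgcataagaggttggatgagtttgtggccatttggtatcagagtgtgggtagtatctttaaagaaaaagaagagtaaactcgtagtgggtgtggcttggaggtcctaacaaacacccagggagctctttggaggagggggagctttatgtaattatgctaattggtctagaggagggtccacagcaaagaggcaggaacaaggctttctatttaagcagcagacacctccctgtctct

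Of the family, 9 genes had 10 such upstream windows. The Ces3b window held TATAAA on the gene's own strand at bases 221 to 226, and the Ces1g window held it on the opposite strand at bases 225 to 230. The letters TATAAA, searched on both strands, stood in 12.9% of the upstream windows of 27025 mouse genes. The other 8 windows of the family had no match to it. None of the 10 windows matched TTCNNNGAA, CAAAGTCCA or TTGCGCAA on either strand, which stood in 7.11%, 0.4% and 0.174% of all windows. No match says only that these letters were not in these windows. Ces1b had a further window before another annotated start, and only the one shown above was aligned. That Ces1b window and the Ces1c window were identical at 213 of 250 bases (85.2%) after global alignment, whereas those of Ces3b and Ces1g were identical at 96 (38.4%). The lowest value of any pair was 38%, for Ces2c and Ces3b. The closest pair in the other cluster was Ces2a and Ces2c, at 164 of 250 bases (65.6%).

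The arrays differed within the control group, which bears on several members. Over the 14996 probe sets the correlation across genes was 0.982 between both controls, 0.992 between both knockouts and 0.955 to 0.96 across genotypes. Among 12871 genes, 116 differed by at least 1 log2 unit between the controls and 39 between the knockouts. The second control was higher than the first by 7.02 log2 units for Cyp2b9 and 3.80 for Cyp2b13, cytochrome P450 genes known to be higher in female mouse liver. The same difference was -3.25 for Hsd3b5, -2.82 for Cyp7b1 and -2.23 for Elovl3, which are known to be higher in males. The second control was also higher by 5.64 for Dmbt1, 2.59 for Muc3 and 2.58 for Slc26a3, genes of mucosal epithelia. For the sterol synthesis genes Sqle, Cyp51 and Msmo1 it was higher by 2.5, 2.34 and 2.71. The Y-linked genes Ddx3y, Eif2s3y, Kdm5d and Uty lay between 6.83 and 8.77 in all 4 arrays, as their male label has it. These genes were picked after their values were seen, and each difference of a carboxylesterase is therefore also given against each control alone.

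Levels are RMA values on the log2 scale, made by the authors, and a difference is the knockout mean minus the control mean. The level of one probe set cannot be read as more or less RNA than that of another. A background range taken from other genes is thus only a rough gauge. Of the 7 probe sets, 3 had knockout values that did not overlap the control values, 2 of them lower and 1 higher. Such a split was found for 59.1% of all 12871 genes, 27.0% lower and 32.1% higher. A split of at least 2-fold was found for 2 of the 7, Ces3b lower and Ces1g higher, and for 3.95% of all genes, 0.893% lower and 3.05% higher. As the members were chosen from this contrast, nothing is read from these counts. The median difference of the 7 was 0.09, between -4.86 and 2.225, against 0.005 for all genes, whose quartiles were -0.16 and 0.22.

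**Figure D1:**
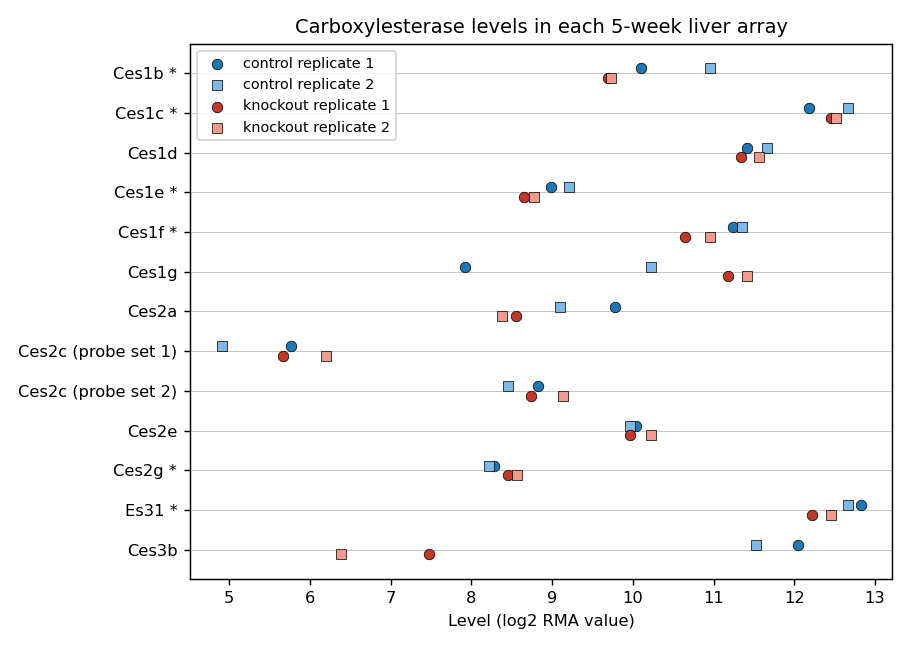
Level of each carboxylesterase probe set (log2 RMA value, x axis) in the 2 control arrays (blue) and the 2 knockout arrays (red) at 5 weeks, with an asterisk for probe sets listed under an older name in the deposited table. The knockout points of Ces3b lie at 6.38 and 7.47, far left of its control points at 11.53 and 12.04, and the control points of Ces1g lie 2.3 apart.

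Ces3b, a liver carboxylesterase that the deposited table annotates to the endoplasmic reticulum, was at 12.04 and 11.53 in the controls and at 7.47 and 6.38 in the knockouts. The groups were far apart, with 4.06 log2 units between the higher knockout and the lower control. The difference of the means was -4.86, and the authors' deposited table gives a fold of 0.0343 for knockout over control. Against the first control alone it was -5.115, and against the second alone -4.605, the third lowest and the second lowest of all genes. The knockout arrays themselves differed by 1.09, a gap reached by 0.241% of all genes. As a gauge of background, 41 genes of olfactory receptors had a median level of 6.04, and 90% of their values lay below 6.78. The Ces3b value of the second knockout was thus within that range and that of the first above it, so the size of the fold is uncertain.

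Ces3a is the nearest relative of Ces3b and its neighbour on the chromosome, and its old name is Es31. RefSeq lists Es31 as a synonym of both genes, so the probe set that carries that name is called Es31 here. Es31 was at 12.82 and 12.67 in the controls and at 12.22 and 12.45 in the knockouts. The groups did not overlap, and the difference was -0.41, or 1.33 times lower. It was -0.485 against the first control and -0.335 against the second. Both Ces3 probe sets were thus lower in the knockouts, with -0.41 for Es31 beside -4.86 for Ces3b.

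Ces1g, listed as Ces1, is an esterase of liver and intestine whose loss in mice is known to raise lipid synthesis in the liver. It was at 7.92 and 10.22 in the controls and at 11.18 and 11.41 in the knockouts. The groups did not overlap, but the controls lay 2.3 apart, a gap reached by 0.124% of all genes, while the knockouts lay 0.23 apart. The knockout mean was 2.225 higher, or 4.68-fold. It was 10.4-fold higher against the first control and 2.11-fold higher against the second, so the size rests on which control is used. Cyp2b9, at 5.33 and 12.35 in the controls and at 12.08 and 11.89 in the knockouts, was also lowest in the first control. Dmbt1, at 5.17 and 10.81 in the controls and at 5.88 and 5.81 in the knockouts, stood apart in the second control instead. Whether what sets either control array apart has a part in the Ces1g difference was not tested.

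**Figure D2:**
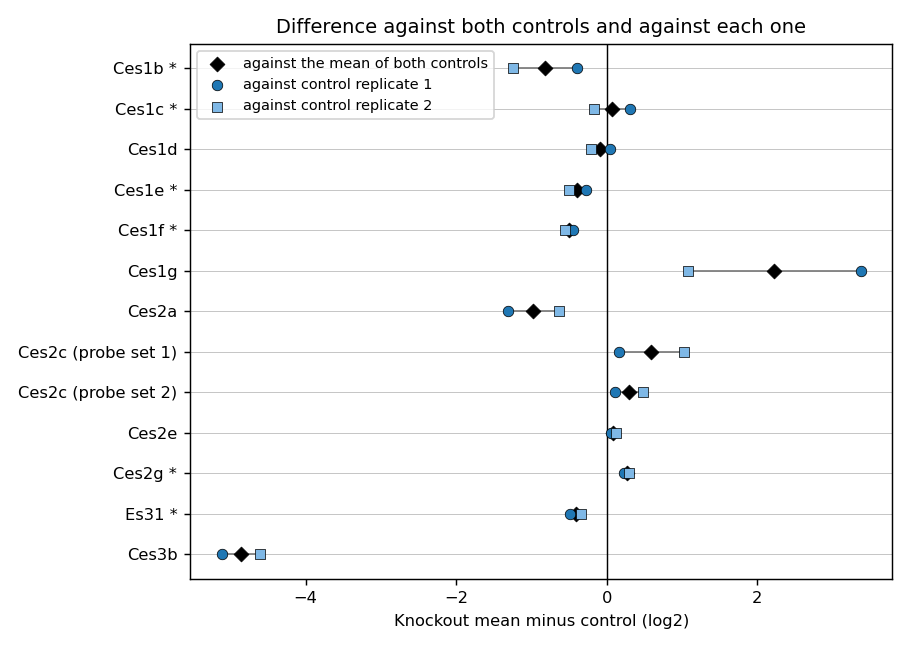
Knockout mean minus control (log2, x axis) for each carboxylesterase probe set, against the mean of both controls (black), the first control alone (dark blue) and the second alone (light blue), with an asterisk for older names. Ces3b stays between -5.115 and -4.605, and Ces1g spans 1.075 to 3.375.

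Against the mean of both controls, the other probe sets of the Ces1 group differed less than Ces1g, though against the second control alone Ces1b differed by more. Those that did not overlap were lower in the knockout. Ces1d, listed as Ces3, is the triacylglycerol hydrolase that mobilises stored triglyceride for secretion in lipoproteins. It was at 11.41 and 11.66 in the controls and at 11.34 and 11.56 in the knockouts. These overlapped, with a difference of -0.085 that was 0.04 against the first control alone and -0.21 against the second. Ces1f, listed as AU018778, is a second enzyme with reported triglyceride hydrolase activity. It was at 11.24 and 11.35 in the controls and at 10.64 and 10.95 in the knockouts. Both knockouts were lower than both controls, with a difference of -0.50, or 1.41 times lower. It was -0.445 against the first control and -0.555 against the second.

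Ces1e, listed as Es22, is egasyn, which holds part of the cell's beta-glucuronidase in the endoplasmic reticulum. It was at 8.99 and 9.21 in the controls and at 8.65 and 8.77 in the knockouts, without overlap and with a difference of -0.39, which was -0.28 against the first control and -0.50 against the second. The gene of its partner, Gusb, was at 7.53 and 7.41 in the controls and at 7.64 and 7.82 in the knockouts, a difference of 0.26 that did not pass (limma adjusted p = 0.199).

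Ces1c, listed as Es1, encodes the carboxylesterase that mouse liver secretes into plasma. It was at 12.18 and 12.66 in the controls and at 12.46 and 12.52 in the knockouts. Both knockouts lay between the controls, and the difference of 0.07 changed sign between the controls, at 0.31 against the first and -0.17 against the second. Ces1b, listed as Gm5158, was at 10.10 and 10.95 in the controls and at 9.69 and 9.73 in the knockouts. These did not overlap, and the difference was -0.815, or 1.76 times lower. It was -0.39 against the first control and -1.24 against the second, so its size also rests on the control. As close paralogs may share probe sequence, the share of each gene in these values is uncertain. The deposited table marks none of its 14996 probe sets as cross-hybridising, so its mark cannot tell such paralogs apart.

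In the Ces2 group, Ces2a alone among the members chosen had separate groups. Ces2a, listed as Ces6, was at 9.78 and 9.10 in the controls and at 8.55 and 8.38 in the knockouts. Both knockouts were lower, with a difference of -0.975, or 1.97 times lower. It was -1.315 against the first control and -0.635 against the second, which moves the fold by over 1.5 times.

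Ces2c, listed as Ces2, is known as an acylcarnitine hydrolase and had 2 probe sets. The brighter was at 8.83 and 8.45 in the controls and at 8.74 and 9.13 in the knockouts, and the dimmer at 5.77 and 4.91 and at 5.67 and 6.20. Both overlapped between the groups, with differences of 0.295 and 0.595. The brighter differed by 0.105 against the first control and 0.485 against the second, and the dimmer by 0.165 and 1.025, so both sizes rest on the control. The dimmer lay around the median of the olfactory receptor genes. Ces2e, listed as Ces5, was at 10.04 and 9.97 in the controls and at 9.97 and 10.22 in the knockouts, which overlapped, and differed by 0.09, or 0.055 and 0.125 against each control. Ces2g, listed as 2210023G05Rik, was at 8.28 and 8.22 in the controls and at 8.46 and 8.57 in the knockouts. These did not overlap, with a difference of 0.265 that was 0.235 against the first control and 0.295 against the second.

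Taking all 13 probe sets, 8 did not overlap between the groups, 6 of them lower and 2 higher in the knockout, beside 59.1% of all genes (27.0% lower and 32.1% higher). Only the total lies close to its share, with more of the 13 lower and fewer higher. The probe sets are few, and 7 of them were chosen from this contrast, so nothing is read from the counts. The median difference over the 13 was -0.085. The 6 under older names had a median of -0.40, between -0.815 and 0.265, and none reached 2-fold. By member, Ces3b, Es31, Ces2a, Ces1b, Ces1e and Ces1f were lower in both knockouts, Ces1g and Ces2g were higher in both, and Ces1c, Ces1d, Ces2c and Ces2e overlapped.

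The carboxylesterase genes lie in a pair of clusters on one chromosome in the RefSeq annotation, and no other gene measured lay inside either. The nearest measured genes outside the cluster of Ces2, Ces3 and Ces4a differed little. On one side, Pdp2 differed by -0.26 and Ciao2b by 0, and on the side of Ces3b, Cbfb by -0.08 and D230025D16Rik by -0.005. Cbfb, the first of these beyond Ces3b, was at 7.72 and 7.84 in the controls and at 7.65 and 7.75 in the knockouts, which overlapped. Next to the Ces1 cluster, Lpcat2 was higher by 1.335 and Mmp2 by 1.46 on one side, and Nudt21 differed by 0.005 on the other.

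The genes nearest to Ces3b in profile were ranked by the Euclidean distance between log2 values centred on each gene's mean over the 4 arrays, where the median gene lay 4.94 away. Cyp2c38, a cytochrome P450 gene, was nearest, at 1.34. It was at 9.73 and 9.98 in the controls and at 6.11 and 5.95 in the knockouts. Sult2a8, a sulfotransferase gene, followed at 1.47, the fatty acid elongase gene Elovl3 at 1.83, the organic anion transporter gene Slco1a1 at 1.93 and Gm10319 at 2.26. Over 4 arrays this likeness is little more than a low level in both knockouts. Elovl3 differed from Ces3b within the controls, at 10.38 and 8.15.

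**Figure D3:**
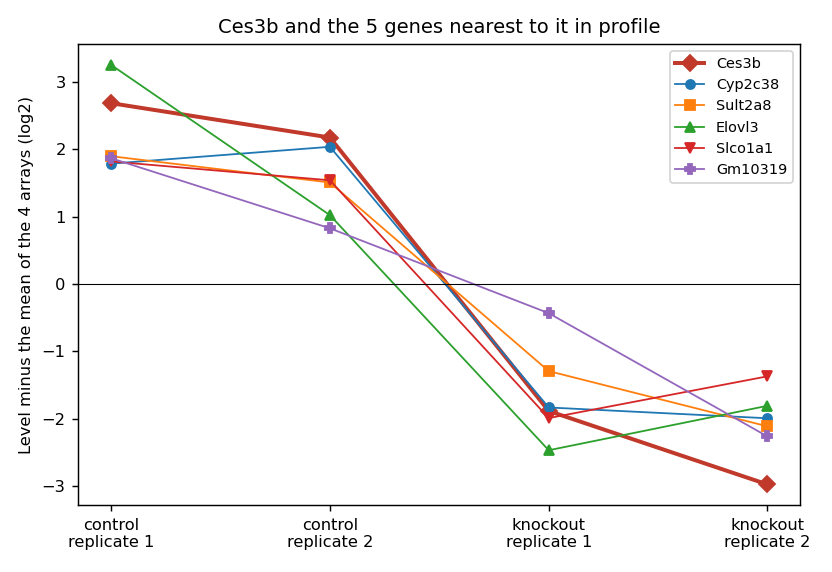
Log2 level minus the mean of the 4 arrays (y axis) in each array (x axis) for Ces3b and the 5 genes nearest to it. All 6 are above 0 in both controls and below 0 in both knockouts, and Elovl3 is 2.23 apart between the controls.

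Genes around the carboxylesterases were read from lists, with a limma fit over all 12871 genes that called 15.0% of them, 1394 higher (10.8%) and 534 lower (4.15%), at an adjusted p under 0.05 (Benjamini-Hochberg). Among neutral lipid hydrolases, 2 of 21 measured genes rose and none fell (2 were lower at an unadjusted p under 0.05), with a median difference of 0.025. Lpl, the lipase that acts on circulating lipoproteins, rose by 1.345 (SE 0.164, adjusted p = 0.00628, limma) and Pnpla6, a lysophospholipase, by 0.955 (SE 0.119, adjusted p = 0.00654). Pnpla2, the main triglyceride lipase of lipid droplets, differed by 0.10 (adjusted p = 0.732, limma) and Aadac, a deacetylase of the endoplasmic reticulum, by 0.025 (adjusted p = 0.922, limma). Among genes of triglyceride mobilisation and lipoprotein assembly, 1 of 18 rose and none fell (1 was lower at an unadjusted p under 0.05), with a median of -0.06. The riser was Cidec, a lipid droplet protein, at 0.885 (SE 0.144, adjusted p = 0.0133, limma).

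Other esterases and thioesterases fell in 4 of 22 measured genes and rose in 1, with a median of -0.05. Over all genes, limma called 4.15% lower and 10.8% higher. Those that fell were Afmid, the kynurenine formamidase (-1.165), Cmbl (-0.675), Notum, which removes the lipid from Wnt proteins (-0.515), and the plasma paraoxonase gene Pon1 (-0.505). The mitochondrial thioesterase gene Acot2 rose by 1.055 (SE 0.189, adjusted p = 0.0178, limma). Bche, the cholinesterase of plasma, differed by -0.06 (adjusted p = 0.851, limma). With the replicate number as a block in limma, Cmbl, Notum and Pon1 no longer passed (adjusted p = 0.0562, 0.0892 and 0.114). That number comes from the sample titles and need not pair the samples, here and wherever the block is used below.

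Of genes for retrieval to and folding in the endoplasmic reticulum, 1 of 13 rose and none fell (2 were lower at an unadjusted p under 0.05, and 2 were called lower with limma's trend and robust options), with a median of -0.11. The riser was Kdelr3, a receptor that returns resident proteins to that compartment, at 0.785 (adjusted p = 0.0308, limma), and it did not pass with the block (adjusted p = 0.095). All 4 of its values lay below 6.04. Of 20 regulators reported for carboxylesterase genes, 3 fell and 1 rose, with a median of -0.29. At an unadjusted limma p under 0.05, 8 of them were lower and 2 higher, beside 1488 lower and 2444 higher of all 12871 genes. Beside both lists, 4.15% of all genes were called lower and 10.8% higher. Bcl6, a repressor known to act at growth hormone responsive genes of the liver, rose from 6.15 and 6.05 to 7.3 and 8.0, by 1.55 (SE 0.225, adjusted p = 0.01, limma). The xenobiotic receptor gene Nr1i3 fell, with a difference of -0.755 (adjusted p = 0.0325, limma), as did Foxa2 with -0.55 (adjusted p = 0.0306). Foxa2 did not pass with the block (adjusted p = 0.085). Hnf4a and the bile acid receptor gene Nr1h4 differed by 0.045 (adjusted p = 0.831, limma) and -0.29 (adjusted p = 0.147, limma).

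The limma calls rest on all 4 arrays, as none stood when any 1 array was left out. Without an array, between 1580 and 2214 genes were higher and between 659 and 1400 lower at an unadjusted p under 0.05. With limma's trend and robust options, 442 to 1149 were called higher and 93 to 501 lower. After quantile normalization of the 4 arrays, 1200 were called higher and 760 lower, so that 61.2% of calls were higher in place of 72.3%.

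Cell type markers were set beside these values, since in whole liver fewer cells of a type and less RNA per cell cannot be told apart. For the counts that follow, the shares over all genes were 10.8% higher and 4.15% lower. None of 10 hepatocyte markers rose and 1, Asgr1, fell (-0.60), which did not pass with the block (limma adjusted p = 0.0658). Their mean level was 12.84 and 12.83 in the controls and 12.79 and 12.74 in the knockouts, with Alb differing by -0.01. Kupffer cell and macrophage markers rose in 9 of 10 genes, with mean levels of 8.47 and 8.54 in the controls and 9.58 and 9.375 in the knockouts. Of 8 markers of stellate cells and fibroblasts, 5 rose, of which Dcn did not pass with the block (limma adjusted p = 0.0979), with mean levels of 7.95 and 8.01 in the controls and 8.60 and 8.70 in the knockouts. Cholangiocyte markers rose in 3 of 5 measured genes, Spp1 (3.235), Epcam (0.965) and Sox9 (0.835), while Krt19 differed by -0.315. With the block, Epcam and Sox9 did not pass (limma adjusted p = 0.0659 and 0.0927). The list had mean levels of 6.59 and 6.96 in the controls and 7.63 and 7.85 in the knockouts. Of 6 intestine markers 3 were measured, and Vil1 rose (1.675), while Fabp2, at -0.575, did not pass (adjusted p = 0.0753, limma), though 1 marker of the list was called lower with trend and robust. The list had mean levels of 7.48 and 7.82 in the controls and 8.42 and 8.05 in the knockouts.  Of 6 sinusoidal endothelial markers 1 fell, and none of 4 adipocyte, 2 pancreas and 4 erythroid markers measured passed with limma, at an unadjusted p under 0.05 or with trend and robust either. The part of other cell types in the carboxylesterase differences was not tested.

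**Figure D4:**
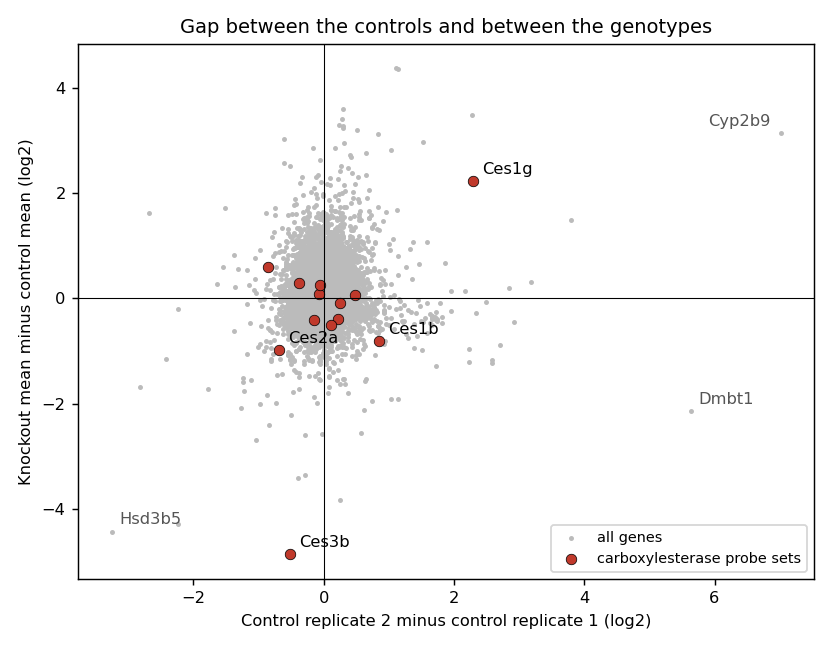
For each of 12871 genes (grey) and the 13 carboxylesterase probe sets (red), the second control minus the first (log2, x axis) against the knockout mean minus the control mean (log2, y axis). Ces3b lies far below 0 near the middle of the x axis, while Ces1g lies 2.3 to the right, and Cyp2b9 and Dmbt1 lie furthest right at 7.02 and 5.64.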

How the data were processed

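Liver RNA of 4 mouse samples at 5 weeks was analysed. The values deposited by the authors are log2 levels made with Affymetrix Expression Console and RMA, per the submitters' processing notes, where software versions and genome build are not given. A table deposited by the authors names 14996 probe sets and gives log2 group means and a linear fold ratio. Its rows were joined by probe set to the values of each array (35556 probe sets), and the group means matched within 0.005. The 4 array columns of that table match no sample label and were not used. Gene names came from RefSeq (GRCm38.p6), by accession for 13056 probe sets, by symbol for 987 and by synonym for 485. Where several probe sets shared a gene (1048 genes), the one with the highest mean was kept, leaving 12871 genes.

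The 8-week fit that had been planned could not name any gene, so limma (3.58.1, R 4.3.3) was run at 5 weeks instead, on log2 values with no block and after a test on simulated data. It serves the lists and markers only. From each list up to 6 called genes with the smallest p are named, and all carboxylesterases. Genes named as not passing, neighbours and the distance to Ces3b were chosen after the data were seen. The members and lists were chosen with earlier results of these data known. The number of arrays limits the precision. Single values of a few genes are not reported here. Sequences are RefSeq's.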

Additional observations from a re-analysis of the deposited data

How the results depend on the processing

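The alternatives planned for 8 weeks were not run, as no gene of those arrays could be named. The alternatives for limma at 5 weeks were chosen after seeing the data. With the replicate number as a block, limma called 651 genes higher and 186 lower. The numbers need not pair the samples, as the correlation of same-numbered deviations was 0.043. Over all 35556 probe sets limma called 0 higher and 0 lower (2931 and 2709 at an unadjusted p under 0.05), and 347 higher and 89 lower with trend and robust. Without 1 array, limma called 0 higher and 0 lower each time. With trend and robust it called 1082 and 414 without the first control, 1149 and 501 without the second, 516 and 159 without the first knockout and 442 and 93 without the second. The cause was not tested, beyond fewer samples.

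For the 7 probe sets chosen, quantile normalization, where it was run, moved the difference by less than 1 SD between replicates. The authors' group means match those of these 4 arrays within 0.005, so their agreement was given in advance. With 2 arrays a group, the block cannot change a difference and leaving out 1 array cannot move it past that SD, so neither bears on stability. Without 1 array, Ces3b ranged from -5.405 to -4.315, Ces1g from 1.075 to 3.375, Ces2a from -1.315 to -0.635, Ces1d from -0.21 to 0.04 and Ces2e from -0.035 to 0.215. Of the 30 list and marker genes named by the rule, 10 lost their limma call with the block, 2 with quantile normalization (Kdelr3, adjusted p = 0.107, and Pon1, 0.0567), 1 with the mean of probe sets (Notum, 0.0716) and 30 without any 1 array. With trend and robust, 13 to 24 of the 30 kept their call without 1 array.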
